A study of Mus musculus with 10 samples.

Results

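The 7 genes described here act together in antigen presentation by major histocompatibility complex (MHC) class II molecules. They were chosen by symbol (H2-Aa, H2-Ab1, H2-Eb1, H2-DMa, H2-DMb1, Cd74 and Ciita), out of the 47937 genes listed for each library of mouse visceral white adipose tissue (WAT). All 7 were matched through their Ensembl identifiers, and all 7 passed the filter on low counts in every comparison. The tissue was profiled by mRNA-seq in 10 libraries from C57BL/6 mice (the strain in the labels, with a backcross to C57BL/6J in the study's methods), in 4 groups that combined a genotype with a diet. Mof, listed in the annotation as Kat8, encodes the acetyltransferase of histone H4 lysine 16, and Mof+/- mice carry 1 functional copy in every tissue. The standard diet (SD) groups were 3 Mof+/+ and 3 Mof+/- libraries from mice 8 weeks old. The high-fat diet (HFD) groups were 2 Mof+/+ and 2 Mof+/- libraries, from mice that the labels give as 27 weeks old after 20 weeks of HFD. The study's text gives a longer time on HFD. By these accounts diet and age cannot be told apart.

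In class II presentation, peptides from material taken up into endosomes are bound by a heterodimer of an alpha and a beta chain and shown at the cell surface to CD4+ T cells. Cells that carry class II molecules at high levels are dendritic cells, B cells and macrophages, and adipose tissue macrophages are known to accumulate in obesity. H2-Aa and H2-Ab1 encode the alpha and beta chains of the I-A molecule, and H2-Eb1 encodes the beta chain of I-E. C57BL/6 mice lack a functional gene for the I-E alpha chain, and the pseudogene at that locus, H2-Ea-ps, was at 0 counts in all 10 libraries. Cd74 encodes the invariant chain, which fills the groove of new class II molecules and steers them to endosomes. H2-DMa and H2-DMb1 encode the chains of H2-DM, which exchanges the remnant of the invariant chain for antigenic peptide. Ciita encodes the class II transactivator, which has no known DNA binding of its own and is recruited by factors bound to short boxes before class II genes.

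In GRCm38, with the gene models of GENCODE M21, 5 of the 7 genes lie in the MHC on chromosome 17. H2-DMa (34119541 to 34139101), H2-DMb1 (34153072 to 34160230), H2-Ab1 (34257689 to 34269419) and H2-Eb1 (34305867 to 34316674) are on the plus strand, and H2-Aa (34282744 to 34287823) is on the minus strand. Cd74 and Ciita lie outside the MHC. All 7 are protein-coding genes.

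Of the genes with a promoter sequence, 3 of 4 carry letters of the shared boxes through which Ciita is known to act. RefSeq windows of GRCm38.p6 (250 bases before to 50 bases after a transcription start) were found for 4 of the 7 genes, H2-Aa, H2-Eb1, H2-DMa and H2-DMb1. Capitals below mark the letters CTNGNAACT of the X box, bound by the RFX complex, and TGATTGG of the Y box, bound by NF-Y. The stretches of H2-Aa (chr17:34287847-34287927, minus strand) and H2-Eb1 (chr17:34305753-34305832, plus strand) are shown because they lay in no annotated exon and hold both boxes.
H2-Aa: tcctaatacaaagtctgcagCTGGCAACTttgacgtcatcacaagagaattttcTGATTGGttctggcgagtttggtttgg
H2-Eb1: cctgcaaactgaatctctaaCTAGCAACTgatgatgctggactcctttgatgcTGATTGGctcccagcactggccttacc
The X box letters began 84 bases before the start of H2-Aa, 94 bases before that of H2-Eb1 and 97 bases before that of H2-DMb1. The Y box letters followed at a distance of 34, 33 and 34 bases, counted from the start of one box to the start of the other. The H2-DMb1 boxes lay inside the first exon of the GENCODE model, which begins upstream of the RefSeq start. Neither set of letters was in the 2 windows of H2-DMa. Of the other class II genes, H2-DMb2, H2-Oa, H2-Ob and H2-Eb2 each had the Y box letters and not the X box letters. The same held for the class I presentation genes H2-K1, H2-D1, Tap1, Psmb9 and H2-T23, so the Y box letters were not particular to class II genes. The letters were chosen after these windows had been read, and both strands were searched. Over all 32851 windows, 7.82% held the Y box letters, 4.1% the X box letters and 0.35% both. A match of letters is a description of the window and does not show that a factor was bound.

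**Figure D1:**
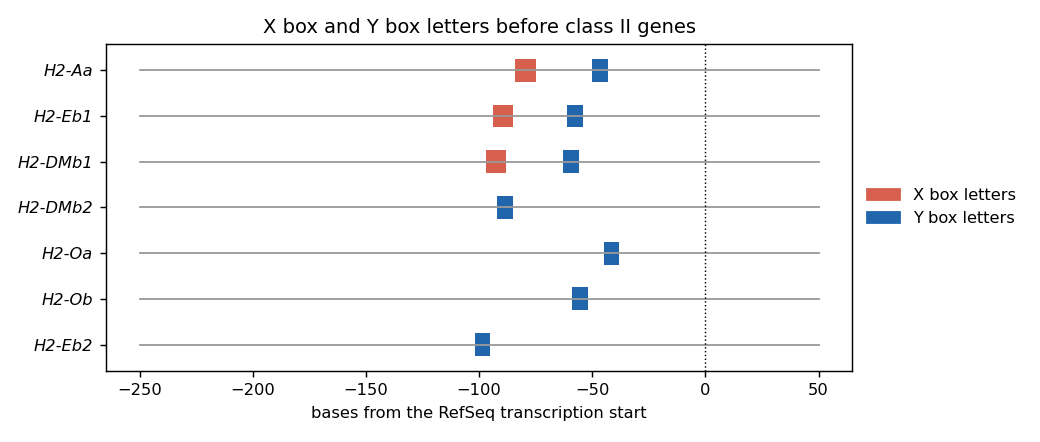
Position of the X box letters (red) and Y box letters (blue) in the RefSeq promoter windows of 7 class II genes, in bases from the transcription start (dotted line). H2-Aa, H2-Eb1 and H2-DMb1 hold both, with the X box first, and H2-DMb2, H2-Oa, H2-Ob and H2-Eb2 hold the Y box letters alone.

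Several libraries stood apart, and the results below are given with this in view. Total counts on genes ranged from 1044355 to 17171947 per library, and the smallest total was that of HFD Mof+/- replicate 1. That library also had 26.9% of its counts on the mitochondrial genome and 4.97% on 8 skeletal muscle genes, against 1.79% to 8.82% and at most 0.13% in the other 9. SD Mof+/+ replicate 3 carried B cell and T cell genes at levels far above those of the other libraries, as described below. The headings inside the files name this library as Mof+/- and name SD Mof+/- replicate 3 as a control, and the labels were followed here. They also number HFD Mof+/- replicates 1 and 2 as 3 and 4. By sex-linked genes, each of the third SD libraries was like the other SD libraries of its labelled genotype, as given next. Sex-linked genes did not match a single sex. All 3 SD Mof+/- libraries had Xist, the RNA of the inactive X chromosome (46.1 to 139 CPM, counts scaled to the library total), and 0 counts on 4 Y-linked genes. The other 7 libraries had Y-linked counts and no Xist counts. The study's methods give male mice, so genotype on SD, diet in Mof+/- mice and the genotype by diet interaction cannot be told apart from sex. Kat8 was at 20.4 to 21.5 CPM in SD Mof+/+ and at 11.5 to 18.8 CPM in SD Mof+/- libraries. On HFD it was at 18.1 and 19.2 CPM in Mof+/+, and at 20.1 and 10.5 CPM in Mof+/-, where the groups overlapped.

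The class II genes were abundant in WAT, led by the invariant chain and the I-A and I-E chains. Scaled to the length of each gene's principal transcript, Cd74 was at 769 ± 421 CPM per kb in SD Mof+/+ mice (mean ± s.d., n = 3), followed by H2-Aa at 476 ± 271, H2-Ab1 at 394 ± 221 and H2-Eb1 at 249 ± 139. The H2-DM genes were at 28.6 ± 14.6 (H2-DMb1) and 24.6 ± 17.5 (H2-DMa) CPM per kb, and Ciita at 4.57 ± 3.81. On these means, each neighbour in the order from Cd74 to H2-Eb1, and the H2-DM pair, differed by less than the s.d. of the higher one. Within libraries the order was steadier. Cd74 was above H2-Aa, H2-Ab1 above H2-Eb1, H2-Eb1 above H2-DMb1 and H2-DMa above Ciita in 10 of 10 libraries. H2-Aa was above H2-Ab1 in 8 of 10, with the exceptions SD Mof+/- replicate 3 and HFD Mof+/- replicate 2. H2-DMb1 was above H2-DMa in 9 of 10, with the exception SD Mof+/+ replicate 1.

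Summed over the 7 genes, the level was highest in the HFD Mof+/+ libraries. The sum was 1886, 1667 and 4312 CPM in SD Mof+/+ replicates 1 to 3, and 1910, 2018 and 2894 CPM in SD Mof+/-. On HFD it was 5828 and 7091 CPM in Mof+/+, and 1400 and 4048 CPM in Mof+/-. Both HFD Mof+/+ libraries were above every other library, also on TMM-scaled CPM (5469 and 6661) and with mitochondrial and muscle genes left out of the totals. The lowest library was HFD Mof+/- replicate 1 on CPM, and SD Mof+/+ replicate 2 on both other scales. In bulk tissue, fewer cells of a type and less RNA per cell cannot be told apart.

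The invariant chain gene (chromosome 18, 60803848 to 60812652, plus strand) had the highest counts. Cd74 was at 792, 694 and 1767 CPM in SD Mof+/+, at 685, 715 and 1065 CPM in SD Mof+/-, at 2257 and 2721 CPM in HFD Mof+/+ and at 495 and 1465 CPM in HFD Mof+/-. The 2 HFD Mof+/+ values were above all 8 others, and the other 3 groups overlapped.

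The classical chains were also highest in HFD Mof+/+. H2-Aa was at 371, 350 and 890 CPM in SD Mof+/+, at 483, 466 and 495 CPM in SD Mof+/-, at 1246 and 1570 CPM in HFD Mof+/+ and at 304 and 830 CPM in HFD Mof+/-. Its SD Mof+/- libraries lay close together, whereas SD Mof+/+ spread over more than their whole range. H2-Ab1 was at 349, 298 and 785 CPM in SD Mof+/+, at 342, 412 and 693 CPM in SD Mof+/-, at 1034 and 1283 CPM in HFD Mof+/+ and at 216 and 936 CPM in HFD Mof+/-. H2-Eb1 was at 296, 267 and 682 CPM in SD Mof+/+, at 328, 366 and 540 CPM in SD Mof+/-, at 992 and 1168 CPM in HFD Mof+/+ and at 254 and 672 CPM in HFD Mof+/-. For both beta chains the third SD library was the highest of its group in either genotype.

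The peptide exchange factor was lower in level and differed between its 2 chains. H2-DMa was at 38.1, 13.3 and 71.0 CPM in SD Mof+/+, at 26.6, 23.02 and 43.9 CPM in SD Mof+/-, at 92.7 and 109 CPM in HFD Mof+/+ and at 27.8 and 57.5 CPM in HFD Mof+/-. H2-DMb1 was at 25.4, 31.5 and 63.5 CPM in SD Mof+/+, at 31.8, 26.8 and 57.1 CPM in SD Mof+/-, at 176 and 217 CPM in HFD Mof+/+ and at 83.3 and 85.1 CPM in HFD Mof+/-. H2-DMb1 was the single member of the 7 whose HFD Mof+/- libraries were both above all 6 SD libraries. Its close paralog H2-DMb2 was at 0 to 12.7 CPM in 9 libraries and at 55.8 CPM in SD Mof+/+ replicate 3. How reads that fit both genes were counted is not given in the sources used here, so the levels of both are uncertain to that extent.

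Ciita (chromosome 16, 10480059 to 10528418, plus strand) varied between libraries in another way than the other 6 genes. It was at 15.3, 13.1 and 53.8 CPM in SD Mof+/+, at 12.7, 8.06 and 0 CPM in SD Mof+/-, at 30.0 and 23.2 CPM in HFD Mof+/+ and at 20.1 and 2.71 CPM in HFD Mof+/-. The highest value was that of SD Mof+/+ replicate 3, above both HFD Mof+/+ libraries. SD Mof+/- replicate 3 had 0 counts, which allows up to 0.446 CPM at 3 counts (exact 95% upper bound 0.549 CPM), while Cd74 in the same library was at 1065 CPM. In HFD Mof+/- Ciita was higher in replicate 1, whereas Cd74, H2-Aa, H2-Ab1, H2-Eb1 and H2-DMa were higher in replicate 2. The 2 libraries were close for H2-DMb1, and their order there turned on TMM-scaled CPM (99.6 and 87.6). Ciita had 21 counts in replicate 1 (95% interval 12.4 to 30.7 CPM, exact Clopper-Pearson) and 15 counts in replicate 2 (1.52 to 4.47 CPM), so that these libraries differed by more than counting error. Across the 10 libraries, on log2 CPM, Pearson's r between Ciita and the other 6 genes ran from -0.23 (H2-Ab1) to 0.08 (H2-Aa), whereas the pairs among the other 6 ran from 0.71 to 0.98. These points share libraries, depth and tissue composition, and the values are a description. Ciita had 0 counts in SD Mof+/- replicate 3 and 15 in HFD Mof+/- replicate 2, and such low values weigh heavily on a log scale. Its r without these libraries was not computed. The Ciita transcript (6007 bases) is longer than those of the other members (1128 to 1669 bases), and the libraries differed in how counts depended on length. By exonic length, the union of a gene's exons, Ciita had 9535 bases and the other members 1679 to 3798. The rank correlation of a library's deviation with exonic length was 0.23 to 0.31 in SD Mof+/+ and -0.29 in SD Mof+/- replicate 3. The part of length in the Ciita values was not tested by gene.

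**Figure D2:**
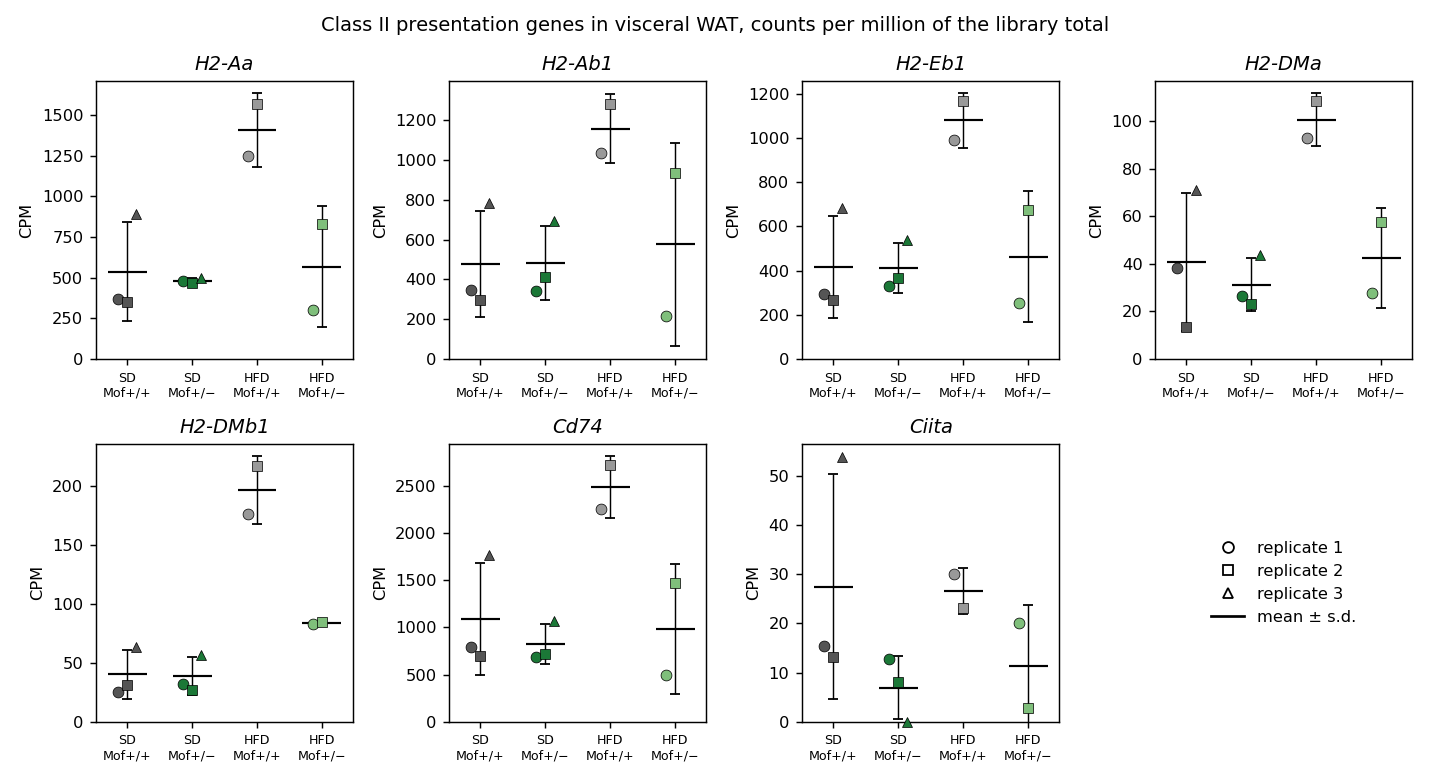
CPM of each class II presentation gene per library (points, shape by replicate number) on a linear axis from 0, with the mean and s.d. of each group (lines and bars), for SD Mof+/+ and Mof+/- (n = 3 each) and HFD Mof+/+ and Mof+/- (n = 2 each). The HFD Mof+/+ libraries are above all others for every gene but Ciita, and SD Mof+/+ replicate 3 (triangle) is the highest SD library for all 7 genes on this scale.

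The remaining class II genes marked 1 library. H2-Oa and H2-Ob encode the chains of H2-O, which restrains H2-DM and is known from B cells, and H2-Eb2 is a further beta chain gene. In SD Mof+/+ replicate 3, H2-Oa was at 16.4, H2-Ob at 61.3 and H2-Eb2 at 13.8 CPM. In the other 9 libraries these genes were at 0 to 3.7, 0 to 9.4 and 0 to 1.8 CPM. The sum over 8 B cell genes was 458 CPM in that library, against 2.89 to 66.8 CPM elsewhere, and the sum over 7 T cell genes was 388 CPM, against 5.07 to 40.0 CPM. All 8 B cell genes were above every other library there, among them Ms4a1 at 53.0 CPM (0 to 8.0 elsewhere). The receptor gene Ccr7, carried by lymphocytes and migrating dendritic cells, was at 60.9 CPM there and at no more than 3.9 CPM elsewhere. The sum over 11 macrophage genes in the same library was 2149 CPM, close to the other SD libraries (1304 to 2266 CPM).

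The class II sum was near the macrophage sum in most libraries. Its ratio to the macrophage sum was 1.002, 1.28 and 2.01 in SD Mof+/+, 0.84, 1.02 and 1.39 in SD Mof+/-, 1.001 and 0.88 in HFD Mof+/+ and 0.79 and 1.06 in HFD Mof+/-. The highest ratio was that of the library with the lymphocyte genes. The sum over 11 dendritic cell genes ran from 130 CPM in HFD Mof+/- replicate 1 to 549 CPM in HFD Mof+/+ replicate 2, and SD Mof+/+ replicate 3 was second at 479 CPM. The part of each cell type in the class II level was not tested.

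**Figure D3:**
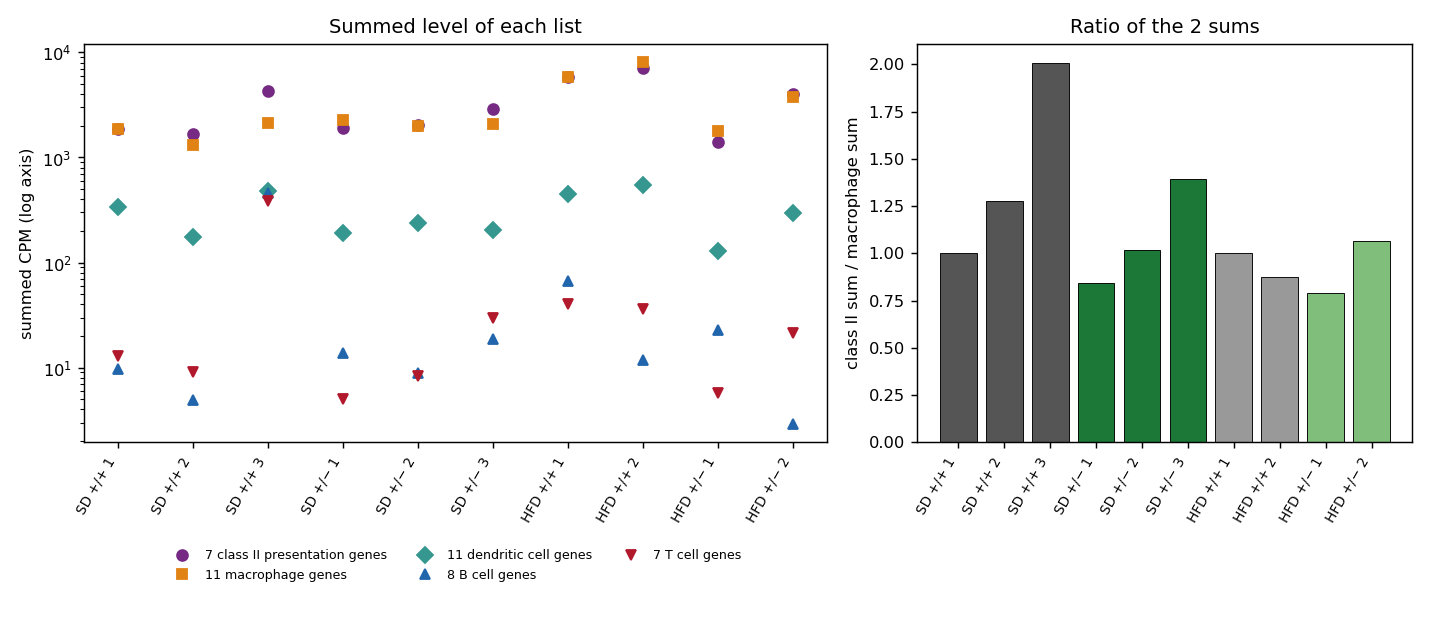
Left, summed CPM (log axis) of the 7 class II presentation genes and of macrophage, dendritic cell, B cell and T cell marker lists in each library. Right, the class II sum divided by the macrophage sum on a linear axis from 0; SD Mof+/+ replicate 3 has the highest ratio (2.01) and the highest B cell and T cell sums.

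The diet comparison in Mof+/+ mice asked how WAT changed after long HFD feeding. H2-DMb1, the beta chain of the exchange factor, rose on HFD (log2 fold change 2.42 ± 0.37, SE). It was the 1 member of 7 that passed an adjusted p of 0.05 (edgeR's quasi-likelihood test, Benjamini-Hochberg over all genes tested, adjusted p = 0.0139). The share of all genes past this threshold was 9.75%, and the share that was higher on HFD was 6.02%. The fold changes of the chains and the invariant chain were 1.52 ± 0.41 for H2-Aa, 1.41 ± 0.40 for H2-Ab1, 1.51 ± 0.40 for H2-Eb1 and 1.33 ± 0.40 for Cd74, with adjusted p from 0.0577 to 0.0776. H2-DMa was at 1.44 ± 0.55 (adjusted p = 0.142, edgeR) and Ciita at 0.09 ± 0.59 (adjusted p = 0.940). At an unadjusted p under 0.05, 6 of the 7 differed, against 28.4% of all genes, and DESeq2 called 5 higher (H2-Aa, H2-Ab1, H2-Eb1, H2-DMb1 and Cd74), against 10.2% of all genes. Every gene but Ciita was higher in both HFD libraries than in all 3 SD libraries, which held for 21.0% of all genes. The median over the 7 was 1.44, against -0.04 over all genes tested.

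The count depended on single libraries. Without SD Mof+/+ replicate 3, 6 of 7 members rose on HFD, with H2-Aa at 2.08 ± 0.23, H2-Ab1 at 1.95 ± 0.23, H2-Eb1 at 2.05 ± 0.21, H2-DMa at 2.08 ± 0.45, H2-DMb1 at 2.90 ± 0.24 and Cd74 at 1.86 ± 0.23. Their adjusted p ran from 0.00458 to 0.0319 (edgeR), and 8.88% of all genes were called higher in that fit. Ciita was at 1.01 ± 0.29 (adjusted p = 0.0632, edgeR). With the third SD libraries exchanged as the file headings have them, or without SD Mof+/+ replicate 1, 0 members passed. With the exchange 0 of all 14619 genes passed, so the 0 for the members is no result about them. Without SD Mof+/+ replicate 1, 250 of 15307 genes passed. In those fits 5 (the exchange) and 4 of the 7 had an unadjusted p under 0.05, against 9.60% and 26.1% of all genes. Without HFD Mof+/+ replicate 1 or 2, where the other stood alone for its group, the median over the members was 1.59 and 1.33. Over all genes it was -0.11 and -0.09. DESeq2 was not run on these subsets.

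The endosomal enzymes that cut antigen and the invariant chain rose as a whole list. All 6 genes tested passed the threshold (median log2 fold change 2.02, edgeR), led by Ctss, the protease known for the last cut of the invariant chain (3.33 ± 0.46, adjusted p = 0.0104). Ctss was at 84.7, 52.7 and 175 CPM in SD Mof+/+, and at 881 and 1031 CPM in HFD Mof+/+. Ifi30, a thiol reductase of endosomes, was at 2.23 ± 0.42 (adjusted p = 0.0254, edgeR), the protease Lgmn at 2.08 ± 0.23 (adjusted p = 0.00625) and Ctsd at 1.97 ± 0.22 (adjusted p = 0.00650). These enzymes also serve general lysosomal breakdown.

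Few genes known to act on Ciita or on its boxes passed the threshold. Of 7 genes for the promoter factors (RFX, NF-Y and CREB), 0 passed the threshold (median log2 fold change -0.25, edgeR). Creb1 was at 49.7, 47.0 and 61.6 CPM on SD and 37.3 and 34.8 CPM on HFD, and its log2 fold change was -0.42 ± 0.20 (adjusted p = 0.220, edgeR). Nfyc was at -0.56 ± 0.22 (adjusted p = 0.153, edgeR). Of 8 interferon gamma signalling genes, the pathway best known to induce Ciita, the receptor chain gene Ifngr2 rose (1.54 ± 0.23, adjusted p = 0.0123, edgeR) and the other 7 did not pass. The list's median was 0.03.

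Antigen presentation on class I molecules, which show peptides to CD8+ T cells, had calls in both directions. Of 12 genes, B2m, the light chain of class I, rose (1.34 ± 0.26, adjusted p = 0.0261, edgeR), as did the immunoproteasome gene Psmb10 (1.31 ± 0.29, adjusted p = 0.0379), and the trimming protease gene Erap1 fell by 0.94 ± 0.19 (adjusted p = 0.0284). The median of the list was 0.53, and without SD Mof+/+ replicate 3 the count was 5 higher and 1 lower.

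Class II surface turnover and costimulation had no call. Both turnover genes had positive values, with Cd83, which slows the removal of class II molecules, at 2.32 ± 0.62 (adjusted p = 0.0620, edgeR) and March1, a ubiquitin ligase that drives it, at 1.22 ± 0.60 (adjusted p = 0.232). Of 5 costimulation genes tested, 0 passed, with Cd274 at -0.21 ± 0.28 and Icosl at -0.42 ± 0.46. The median of this list was -0.21, and 0.15 without SD Mof+/+ replicate 3, when 1 of the 2 turnover genes was called higher. The partner genes of CD4+ T cells had 3 of 6 genes tested and 0 called.

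Macrophage genes rose in the same comparison. Of 11, 8 passed, led by Cd68 (3.36 ± 0.30, adjusted p = 0.00322, edgeR), Itgam (3.35 ± 0.26, adjusted p = 0.00303), C1qb (2.48 ± 0.26, adjusted p = 0.00515) and C1qc (2.36 ± 0.28, adjusted p = 0.00727), and the median was 2.21. The macrophage sum was 1304 to 2149 CPM on SD and 5821 to 8083 CPM on HFD. All 4 genes of lipid-associated macrophages rose (median 4.02), among them Gpnmb at 5.39 ± 0.97 (adjusted p = 0.0225, edgeR) and Trem2 at 4.96 ± 0.67 (adjusted p = 0.00990), with sums of 54.4 to 180 CPM on SD and 1723 to 2834 CPM on HFD. Of 11 dendritic cell genes, Itgax, which adipose tissue macrophages also carry, rose (4.17 ± 0.26, adjusted p = 0.00178, edgeR), Siglech, a plasmacytoid cell gene, fell by 5.79 ± 1.29 (adjusted p = 0.0373) and Fscn1 fell by 1.45 ± 0.34 (adjusted p = 0.0451). B cell genes (0 of 8 called, median -1.76) and T cell genes (0 of 7, median -1.50) had negative values in all members, and positive values in all members without SD Mof+/+ replicate 3 (medians 2.49, 1 of 8 called, and 1.81, 0 of 7 called). The dendritic cell median turned from -0.71 to 1.06 in the same way. Of 4 endothelium genes 2 fell (median -1.60), and 4 fell without that library (median -1.82). The part of these cell types in the class II difference was not tested.

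In Mof+/- mice the class II genes did not pass between the diets. The log2 fold changes were 0.19 ± 0.50 for H2-Aa, 0.17 ± 0.66 for H2-Ab1, 0.11 ± 0.53 for H2-Eb1, 0.41 ± 0.56 for H2-DMa, 1.11 ± 0.50 for H2-DMb1, 0.19 ± 0.59 for Cd74 and 0.80 ± 1.75 for Ciita. Of the 7, 0 passed with edgeR, and 0 had an unadjusted p under 0.05 with edgeR (8.57% of all genes did). DESeq2 called 0 of the 7, against 402 of 13610 genes. With edgeR the threshold was passed by 0% of all genes in this comparison, which had 2 libraries on HFD and differed in sex. H2-DMb1 was the 1 member that was higher in both HFD libraries without overlap, as 9.88% of all genes were, with an unadjusted p of 0.0581 and an adjusted p of 0.589 (edgeR). The 95% interval of its log2 fold change was -0.05 to 2.26, and its change in Mof+/+ lay above this interval. That of Cd74 was -1.17 to 1.55, and the change seen for Cd74 in Mof+/+ lay inside it. The difference between the diet responses was tested as the interaction, given below. In this comparison 0 genes passed in any of the lists, although the lipid-associated macrophage sum went from 72.6 to 132 CPM on SD to 480 to 613 CPM on HFD.

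The genotype comparison on HFD asked how Mof+/- WAT differed after long HFD feeding. All 7 members were lower in both Mof+/- libraries than in both Mof+/+ libraries, but so were 45.6% of all genes, and 0 of 7 passed the threshold (0% of all genes). The log2 fold changes were -1.04 ± 0.57 for H2-Aa, -0.75 ± 0.71 for H2-Ab1, -0.94 ± 0.53 for H2-Eb1, -0.93 ± 0.40 for H2-DMa, -0.89 ± 0.30 for H2-DMb1, -1.07 ± 0.67 for Cd74 and -0.86 ± 1.18 for Ciita. H2-DMb1 alone was under 0.05 before adjustment (adjusted p = 0.328, edgeR), against 12.3% of all genes. DESeq2 called 0 of the 7, against 209 of 14120 genes, 80 of them lower. The median of the members was -0.93, against -0.24 over all genes tested. On TMM-scaled CPM, and when counts of mitochondrial and muscle genes were left out of the totals, 6 of 7 were lower without overlap, and Ciita overlapped. The share of all genes lower without overlap was counted on CPM only, so these counts have no share to be read against.

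The Mof+/- libraries on HFD were close for H2-DMb1 and apart for other members, and leaving out one or the other gave different counts of calls. Both carried skeletal muscle genes, with sums over 8 genes of 49726 CPM in replicate 1 and 1297 CPM in replicate 2, against at most 85.4 CPM in the other 8 libraries. Without replicate 1, the library with the fewest counts, 2 members fell, H2-DMb1 by 1.04 ± 0.26 (adjusted p = 0.00756, edgeR) and Ciita by 3.12 ± 0.41 (adjusted p = 6.22e-05). Without replicate 2, 6 members fell, with log2 fold changes from -0.85 ± 0.29 for H2-DMb1 to -2.03 ± 0.33 for H2-Ab1, and Ciita was at -0.01 ± 0.37. In both fits the lone library is assumed to vary like the 2 Mof+/+ libraries, and 17.0% of all genes were called lower without replicate 1 and 34.2% without replicate 2. The median over all genes was -0.23 and -1.48 in these fits, against -0.60 and -1.70 over the members. H2-DMb1 was the 1 member called lower in both fits.

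Other lists were lower in the same direction without a call. Macrophage genes had 11 of 11 negative values (median -1.24) and 0 called, endosomal enzymes 6 of 6 (median -0.86), lipid-associated macrophage genes 4 of 4 (median -1.55) and class I genes 10 of 12 (median -0.70). The macrophage sum was 5821 and 8083 CPM in Mof+/+, and 1770 and 3802 CPM in Mof+/-. In the fit without Mof+/- replicate 1, where 2 members fell, 6 of 11 macrophage genes (median -0.82), 3 of 4 lipid-associated macrophage genes, 5 of 8 B cell genes, 3 of 5 adipose progenitor genes and 4 of 4 mesothelium genes were called lower. In the same fit 8 of 8 skeletal muscle genes were called higher (median 8.25), and of 7 adipocyte genes 4 were higher and 1 lower. These values moved with the class II values, and their part in them was not tested.

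The genotype comparison on SD asked how Mof+/- WAT differed before any HFD. The class II genes did not pass between Mof+/+ and Mof+/- mice (0 of 7, against 5.24% of all genes, edgeR). An unadjusted p under 0.05 was seen for 0 (25.7% of all genes). DESeq2 called 0 of the 7, against 2211 of 13864 genes. The log2 fold changes lay between -0.01 ± 0.40 for Cd74 and 0.41 ± 0.44 for H2-Ab1, apart from Ciita at -1.64 ± 1.10 (adjusted p = 0.387, edgeR). Of these values 5 of 7 were positive. That direction held for 1 of 7 when only library totals were used for scaling and for 2 of 7 after correction for exonic length. On CPM, Ciita was the 1 member lower in all 3 Mof+/- libraries than in all 3 Mof+/+ libraries, as 30.6% of all genes were. On TMM-scaled CPM its groups overlapped, with 13.9 in SD Mof+/- replicate 1 and 11.6 in SD Mof+/+ replicate 2. The 95% interval for Cd74 was -0.92 to 0.89, and that for H2-Ab1 -0.58 to 1.40. Without SD Mof+/+ replicate 3 the median over the members was 0.77, with 6 of 7 positive, 3 at an unadjusted p under 0.05 (H2-Aa, H2-Ab1 and H2-Eb1, against 20.5% of all genes) and 0 past the adjusted threshold (edgeR).

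Some related genes passed between the genotypes on SD, which differed in sex, and most of these calls were lost without SD Mof+/+ replicate 3. The medians of the lists with calls moved both ways without it. They were farther from 0 for macrophage (0.34 with it and 0.52 without it), endosomal (0.56 and 0.63), class I (0.22 and 0.53), endothelium (-2.31 and -2.54) and mesothelium genes (2.76 and 3.28). They were nearer to 0 for dendritic cell (-1.14 and -0.38), interferon gamma (-0.38 and -0.18), adipocyte (0.44 and 0.38) and adipose progenitor genes (0.65 and 0.61), and the costimulation median turned from -1.07 to 0.24. In that fit 0 genes of the macrophage, endosomal, class I, interferon gamma, costimulation, dendritic cell, adipocyte and adipose progenitor lists passed, and 74 of all genes did, against 727 with all 6 libraries. That total was lower still without SD Mof+/+ replicate 1 (19) or 2 (35), ran from 17 to 1026 over all single libraries left out, and was 0 with the third SD libraries exchanged. With all 6 libraries the calls were as follows. The C1q genes of macrophages rose, C1qa by 1.40 ± 0.28 (adjusted p = 0.0369, edgeR), C1qc by 1.26 ± 0.27 (adjusted p = 0.0418) and C1qb by 1.21 ± 0.27 (adjusted p = 0.0429), 3 of 11 macrophage genes in all. Of the endosomal proteases, 2 of 6 rose, Ctsd at 1.41 ± 0.33 (adjusted p = 0.0486, edgeR) and Ctsl at 1.17 ± 0.22 (adjusted p = 0.0333). B2m of class I rose (1.26 ± 0.28, adjusted p = 0.0425, edgeR), 1 of 12. Of interferon gamma signalling genes Jak2 fell by 1.52 ± 0.35 (adjusted p = 0.0471, edgeR), 1 of 7, and of costimulation genes Cd274, which encodes the checkpoint ligand PD-L1, fell by 1.56 ± 0.37 (adjusted p = 0.0487), 1 of 5. Fscn1 was the 1 of 9 dendritic cell genes that fell. Markers of other tissue cells moved in this comparison as well, with 3 of 4 mesothelium genes higher, 3 of 7 adipocyte genes higher and 3 of 4 endothelium genes lower (2 higher, 0 and 2 lower without SD Mof+/+ replicate 3). Their part in the values above was not tested.

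The difference between the diet responses of the genotypes was fitted to all 10 libraries. Of the 7 members, 6 had a negative interaction, that is, a smaller rise on HFD in Mof+/- mice, from -1.41 ± 0.69 for H2-Eb1 to -1.02 ± 0.83 for H2-DMa, and Ciita was at 0.59 ± 1.82. Of these, 0 passed the adjusted threshold (adjusted p from 0.437 to 0.942, edgeR), against 0.0881% of all genes. An unadjusted p under 0.05 was seen for 0 (12.4% of all genes). DESeq2 called 0 of the 7, against 490 of 15897 genes. The median of the members was -1.25, against -0.41 over all genes tested. H2-Aa (-2.11 ± 0.64, adjusted p = 0.0452, edgeR) and H2-Ab1 (-2.50 ± 0.76, adjusted p = 0.0446) were called without HFD Mof+/- replicate 2, where replicate 1 stood alone for its group, 14.9% of all genes were called lower and the median over all genes was -1.55. A difference between the diet responses of Mof+/+ and Mof+/- mice was therefore not shown for these genes, and the intervals for H2-Aa (-2.79 to 0.10) and Cd74 (-2.71 to 0.42) include 0. Of the lists, Itgam was the 1 of 11 macrophage genes with a call (-5.27 ± 0.61, adjusted p = 0.00669, edgeR), at 88.2 and 136 CPM in HFD Mof+/+ and 4.8 and 4.7 CPM in HFD Mof+/-.

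**Figure D4:**
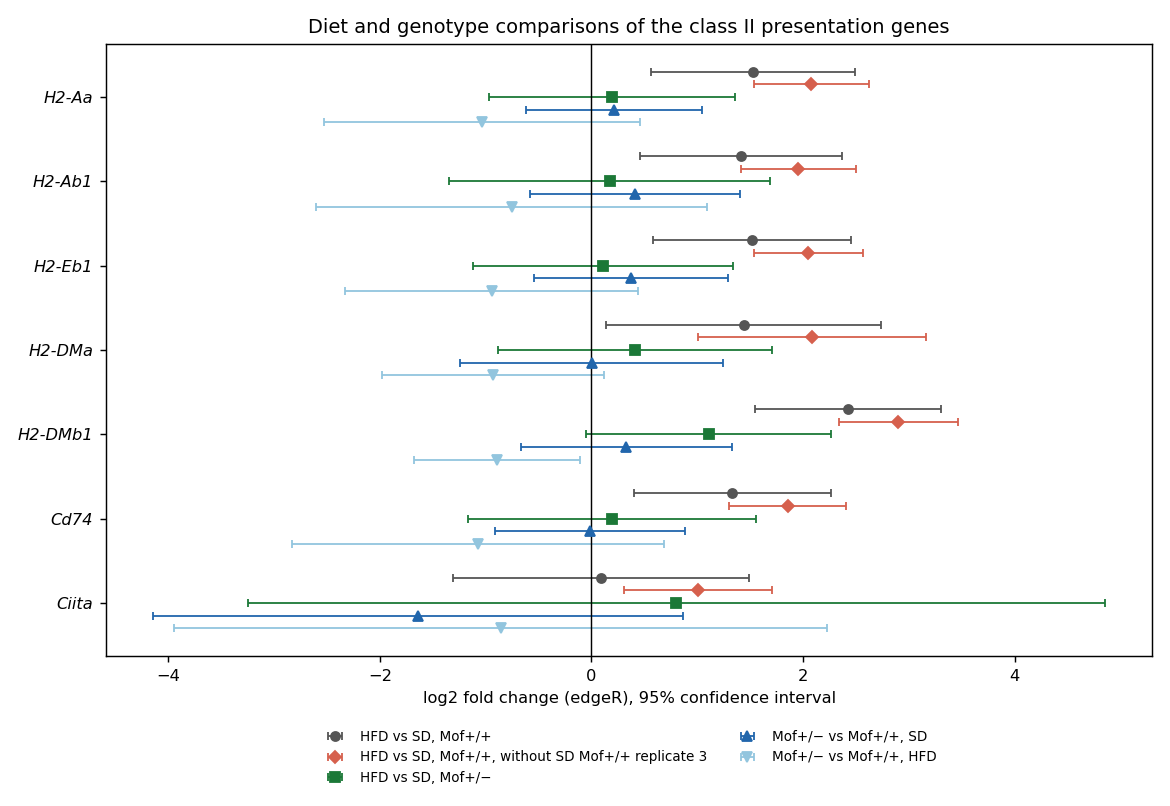
Log2 fold change (edgeR) of each class II presentation gene with its 95% confidence interval for both diet comparisons, both genotype comparisons, and the diet comparison in Mof+/+ without SD Mof+/+ replicate 3. Without that library the intervals of all 7 genes lie above 0 on HFD in Mof+/+, whereas those of the diet comparison in Mof+/- and of the genotype comparison on SD all cross 0.

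The genes whose levels were most like those of the members included several known from white blood cells. Among 11301 genes with a mean of at least 50 counts, Pearson's r with the mean Z-score of the 7 members over 10 libraries was highest for Dok1 (0.97), Laptm5 (0.96), Cotl1 (0.96), Tpd52 (0.96), Hcls1 (0.95) and Irf8 (0.95). Irf8 encodes a transcription factor of macrophages, dendritic cells and B cells. The next were Sec11c, Rpn1, Rhog, Mpeg1, Tpm3, Ly86, Snx5, Unc93b1 and Mcl1, down to 0.92. Without SD Mof+/+ replicate 3 the values of these 15 genes were 0.93 to 0.97. They share libraries, depth and tissue composition with the members, and they are given as a description with no test.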

How the data were processed

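The authors mapped mRNA-seq reads of visceral WAT to GRCm38 with STAR within snakePipes and the table the authors deposited for each library holds raw counts, made with featureCounts (Subread 1.5.0-p1, per the submitters' processing notes), without normalization. The strand setting and the annotation release are not given in the sources used here. The labels give biological replicates. Of 47937 identifiers, 47224 matched a GENCODE M21 symbol with the version dropped.

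CPM were counts divided by the library total. Tests used the quasi-likelihood method of edgeR 4.0.16 after TMM scaling and filterByExpr (Benjamini-Hochberg over all genes, threshold 0.05), fitted to the libraries compared, or to all 10 for the interaction. DESeq2 1.42.0, other scalings, filters, a length correction (loess span 0.3), regroupings and left-out libraries were alternatives. R 4.3.3 and Python 3.11.15 were used. The fits were also run on simulated counts with a single spread for all genes and no outlying library, which does not cover the outlying libraries here. Intervals (exact, 95%) and the floor of 3 counts cover counting error only.

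The members, lists and tests were chosen with earlier results of these data known. All members are named. Of each list, up to 4 called genes with the largest change are named, or, with no call, up to 2 of the highest level. The 15 genes most correlated with the members are also named. Ms4a1 and Ccr7 are outside this rule and were named after their values were seen. Same-numbered libraries did not deviate together (r from -0.04 to 0.03), so numbers were not used as pairs.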

Additional observations from a re-analysis of the deposited data

How the results depend on the processing

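Fits were repeated with DESeq2, DESeq2's size factors, library totals only, no filter, a minimum of 10 counts in every library, a replicate block, a length correction with and without the block, all 10 libraries in 1 fit, the third SD libraries exchanged or both left out, and each library left out. TMM without muscle and mitochondrial genes, and leaving out SD Mof+/+ replicate 3 and HFD Mof+/- replicate 1 together, and the members' sums and overlaps on other scales, were added after seeing the data. For diet in Mof+/+, where 1 member was called, the count was 5 with DESeq2, 5 without a filter, 4 with a minimum of 10 counts, 6 with both of the third SD libraries left out, 0 with them exchanged, and 0 to 6 with 1 library left out. The number of all genes called moved with it, from 1457 to 2990, 1759, 1987, 2230 and 0 in the same order of alternatives. With the replicate block 6 members were called (1460 of all genes), and 7 with the length correction and the block (1678 of all genes). In that fit the third SD library stands alone in its block, so it does not enter the diet contrast. The labels' numbers do not pair the libraries (1 of 6 SD libraries correlated best with its own number), and the block changed the count in no other comparison. With 1 library left out, the count was 0 to 6 for genotype on HFD and 0 to 2 for the interaction. A lone library in a group is assumed to vary like the others.

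For genotype on SD, library totals moved the median of all genes from -0.07 to -0.43 and turned H2-Aa (-0.16), H2-Eb1 (-0.018), H2-DMa (-0.40) and H2-DMb1 (-0.066). The length correction turned H2-Eb1 (-0.17), H2-DMa (-0.056) and H2-DMb1 (-0.32), and with the block H2-Eb1 (-0.064) and H2-DMb1 (-0.27). Exchanging the third SD libraries turned H2-DMb1 (-0.012), Cd74 (0.23) and Ciita (1.43). Cd74 was also at 0.0046 without a filter, 0.061 with the block and 0.22 without both of the third libraries, and H2-DMa at -0.011 with a minimum of 10 counts. With 1 library left out, H2-Aa ranged from -0.0041 to 0.77, H2-Ab1 from -0.011 to 0.95, H2-DMa from -0.41 to 0.64, H2-DMb1 from -0.13 to 0.80 and Cd74 from -0.30 to 0.51.

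Ciita turned to -0.047 with library totals for diet in Mof+/+ (-0.24 to 1.01 with 1 library left out). For diet in Mof+/- it turned to -0.39 with the block, -0.19 with block and length correction, -0.77 with the third libraries exchanged, and ranged from -1.44 to 1.66 with 1 library left out. For the interaction it turned to -2.43 with the exchange, -0.89 without both of the third libraries, -2.45 without SD Mof+/+ replicate 3 and HFD Mof+/- replicate 1, and ranged from -1.52 to 1.53 with 1 library left out. For diet in Mof+/-, leaving out 1 library gave ranges across 0 for H2-Aa (-0.57 to 0.66), H2-Ab1 (-1.08 to 0.82), H2-Eb1 (-0.61 to 0.57), H2-DMa (-0.080 to 0.82) and Cd74 (-0.64 to 0.70). The cause of these turns was not tested. Depth limits Ciita and H2-DMa most, with 21 and 29 counts in HFD Mof+/- replicate 1.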

Other observations

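The level of Cd74 relative to the chains it escorts is given as a description, since the ratio was chosen after its values were seen. The ratio of Cd74 CPM to the summed CPM of H2-Aa, H2-Ab1 and H2-Eb1 was 0.780, 0.759 and 0.749 in SD Mof+/+ and 0.594, 0.574 and 0.616 in SD Mof+/-. All 3 Mof+/+ libraries were above all 3 Mof+/- libraries, including SD Mof+/+ replicate 3 with its lymphocyte genes (0.763 ± 0.016 against 0.595 ± 0.021, mean ± s.d., n = 3 each). On HFD the ratio was 0.690 and 0.677 in Mof+/+ and 0.640 and 0.601 in Mof+/-. The SD groups differ in sex and in how counts depend on exonic length, and these cannot be told apart from genotype. With the third SD libraries exchanged as the file headings have them, the groups would overlap.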
